A study of Mus musculus with 6 samples.

Results

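The genes described here are a group of 9 named for factors of resting and central regulatory T cells (Tregs). They are the transcription factors Tcf7, Lef1, Bach2, Satb1, Klf2 and Klf3, the inhibitors Id2 and Id3, and the surface receptor Cd44. In T cells, however, ID2 is linked to effector states and CD44 to activated cells. All 9 genes were chosen by gene symbol and were found among the 15944 genes of the deposited table. None of the 9 differed between the Treg populations past the adjusted threshold. Id2 and Klf2 were nonetheless higher, and Cd44 lower, in each RORγt+ library than in every CCR6+RORγt- library.

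Splenic Tregs of C57BL/6 mice were sequenced in bulk, and each of the 2 sorted populations, RORγt+ Tregs and CCR6+RORγt- Tregs, has 3 libraries. RORγt+ Tregs were sorted as CD3+CD4+ cells positive for a Foxp3 reporter (RFP) and for a RORγt reporter (GFP), with no gate on the chemokine receptor CCR6. CCR6+RORγt- Tregs were sorted as CD3+CD4+ cells positive for the Foxp3 reporter and for CCR6 staining and negative for the RORγt reporter. Both sorts were thus gated on the same pair of reporters, and the populations differ in the CCR6 gate as well as in RORγt. The sources used here give neither the age nor the sex of the mice. They also do not say whether replicates came from separate mice, so the p-values below speak of the spread among these libraries, some of which may be technical.

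Tregs circulate through lymphoid organs as resting cells, also called central Tregs, and a portion convert to effector Tregs on antigen contact. Resting cells are known for TCF1 (from Tcf7), LEF1, BACH2, SATB1 and KLF2, which keep lymph node homing and survival genes active or hold back effector genes. ID2 and ID3 bind E proteins, DNA-binding factors of developing and mature lymphocytes, and block them, and CD44 binds hyaluronan and is abundant on activated cells.

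Values are normalized counts, in which the read counts of each library were scaled to make libraries comparable, and 1 unit stood for about 1 read. Approximate depths were 9200000 to 14500000 reads per library. The thinnest member value, for Id2, rested on about 272 reads, a counting error of about 6.06%. RORγt+ replicate 3 stood apart from the rest, with 1247 genes at 0 where each other library had 438 to 638, so for each of the 9 genes the fit without it is given as well. Foxp3 was at 10835, 11072 and 12609 normalized counts in RORγt+ Tregs and at 9914, 10187 and 9790 in CCR6+RORγt- Tregs. Cd4 and Cd3g were also high in every library. Of 7 Treg and T cell markers, 0 passed the adjusted threshold. Foxp3, Il2ra and Ctla4 were higher and Cd3g lower without overlap in RORγt+ Tregs, where 8.31% and 9.81% of all genes were. Ikzf2 was at 6358, 6181 and 1435 in RORγt+ replicates 1 to 3 and at 4784, 6205 and 7969 in CCR6+RORγt- Tregs.

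Among the 9 genes, Id2, Klf2 and Cd44 did not overlap between the groups, and Tcf7 is a defining factor of resting T cells. For these 4 genes a stretch of DNA upstream of a transcription start is shown, as the place where factors of this gene group could bind. Sequences are from RefSeq on GRCm38.p6, cut to the part that lies outside every exon of GENCODE M21. They are chr12:25096254-25096342 for Id2 (minus strand), chr8:72318812-72319032 for Klf2 (plus strand), chr2:102901666-102901915 for Cd44 (minus strand) and chr11:52282596-52282711 for the second listed start of Tcf7 (minus strand). Capitals mark matches to any of the 6 short motifs named after the sequences, on either strand.
Id2: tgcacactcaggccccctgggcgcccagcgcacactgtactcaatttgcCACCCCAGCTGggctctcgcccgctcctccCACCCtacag
Klf2: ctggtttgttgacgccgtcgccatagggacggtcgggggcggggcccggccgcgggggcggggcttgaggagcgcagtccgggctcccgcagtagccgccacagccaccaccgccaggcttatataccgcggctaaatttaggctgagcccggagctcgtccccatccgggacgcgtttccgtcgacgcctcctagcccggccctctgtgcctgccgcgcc
Cd44: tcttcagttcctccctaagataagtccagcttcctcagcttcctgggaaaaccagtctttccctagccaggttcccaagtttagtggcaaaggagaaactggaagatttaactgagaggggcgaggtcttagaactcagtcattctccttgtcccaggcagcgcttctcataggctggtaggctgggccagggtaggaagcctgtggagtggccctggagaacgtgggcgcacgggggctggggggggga
Tcf7: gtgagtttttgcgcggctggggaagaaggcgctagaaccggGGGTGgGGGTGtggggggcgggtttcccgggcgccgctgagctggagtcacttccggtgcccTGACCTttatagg

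All 9 genes had a RefSeq promoter window, 17 windows in all, since some genes have several starts. The half-site AGGTCA, to which ROR factors such as RORγt bind, was found in 2 of the 17 windows (11.8%), 1 each of Tcf7 and Satb1, against 16.3% of all 32851 windows. In the Tcf7 sequence above it reads TGACCT, its reverse complement. That stretch lies inside the annotated Tcf7 gene. The Id2 stretch likewise lies inside the annotated Id2 gene, upstream of a start within it. The other Tcf7 stretch, chr11:52283015-52283264, is not shown and holds CANNTG and CACCC but no AGGTCA. The E-box CANNTG, bound by the E proteins that ID2 and ID3 block, was in 12 of the 17 windows (70.6%), against 72.3% of all windows, and the Id2 stretch holds 1, which adjoins a KLF motif. CACCC, a core of KLF sites, was in 14 of 17 windows (82.4%), against 57.5% of all. CTTTGA, a TCF/LEF core, was in 2 (11.8%), against 16% of all, and the FOXO motif GTAAACA was in 1 (5.88%), against 3.65%. The motif TGANTCA of BACH and AP-1 factors was in 0 of 17 windows, against 7.81% of all. The Klf2 and Cd44 stretches shown hold none of the 6 motifs. A match describes letters in a window and shows no binding.

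Between the groups, limma called 0 of the 9 genes at an adjusted p under 0.05, beside 0.564% of all genes (90 of 15944). At an unadjusted p under 0.05 there were 2 of the 9, Id2 and Klf2, where 10.9% of all genes were. The groups did not overlap in 3 of the 9 (33.3%), beside 18.1% of all genes. The log2 fold change of RORγt+ over CCR6+RORγt- Tregs, on log2(value + 1), was above 0 for 5 members and below 0 for 4. Its median was 0.0011 over the 9 genes and -0.011 over all genes. In a bulk library, fewer cells that express a gene cannot be told apart from less RNA per cell.

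**Figure D1:**
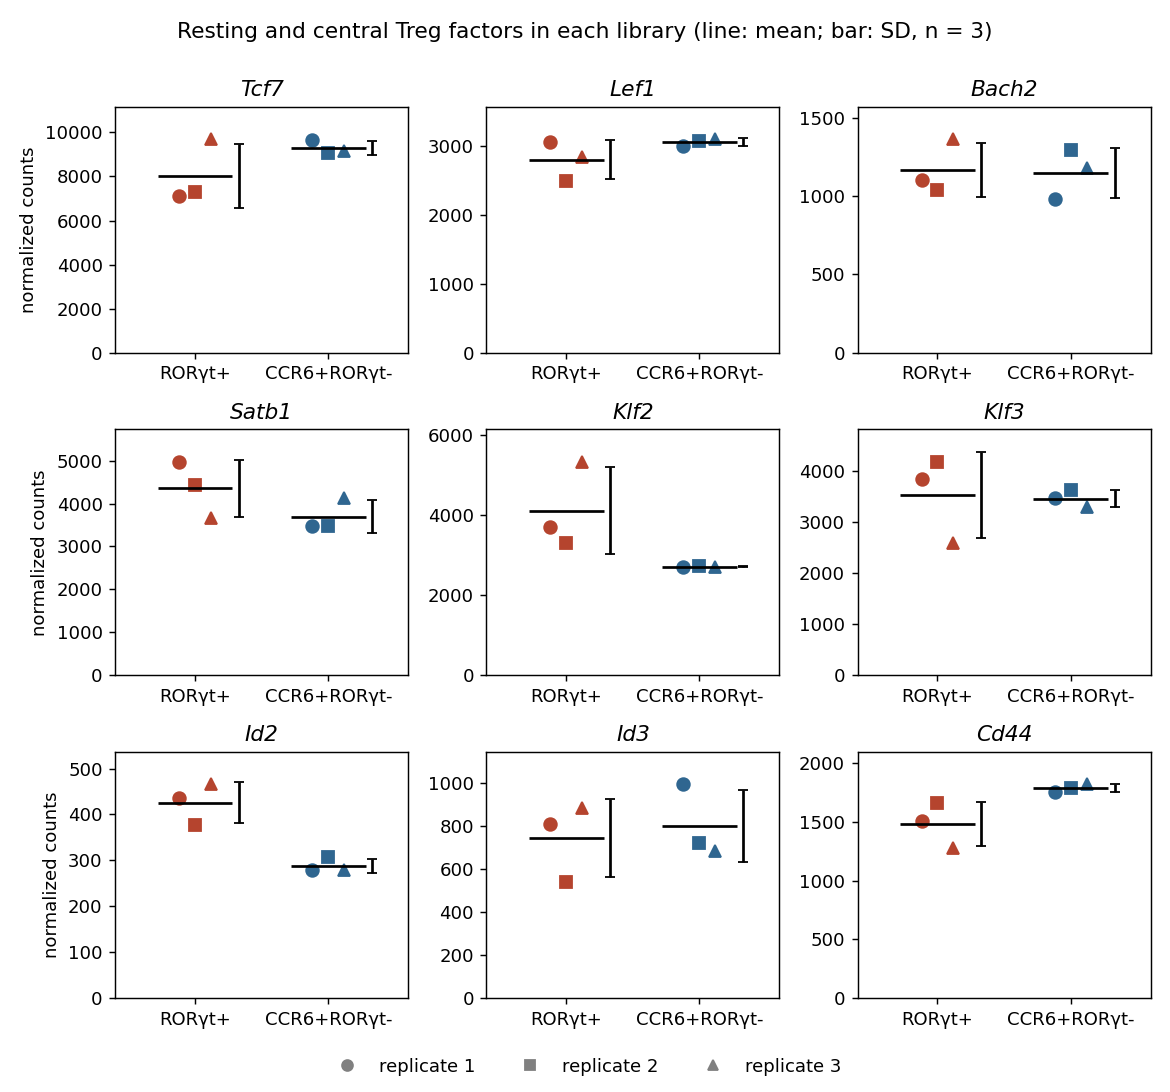
Normalized counts (y axes, from 0) of the 9 genes in the 3 RORγt+ and the 3 CCR6+RORγt- Treg libraries; symbols mark replicate numbers, lines the means and bars the SD (n = 3). Id2 and Klf2 are higher and Cd44 lower in all RORγt+ libraries, and RORγt+ replicate 3 (red triangle) is an end value of its group in 8 of the 9 panels.

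Tcf7 and Lef1 encode related HMG-box factors that share the coactivator β-catenin and keep T cells in a naive or memory-like state. Tcf7 (chromosome 11, 52252371 to 52283014, GRCm38, GENCODE M21) was at 7117, 7274 and 9708 normalized counts in RORγt+ replicates 1 to 3 and at 9633, 9068 and 9152 in CCR6+RORγt- replicates 1 to 3. RORγt+ replicates 1 and 2 lay below all CCR6+RORγt- libraries, while RORγt+ replicate 3 lay above them all. The log2 fold change was -0.22 ± 0.15 (SE, 95% interval -0.57 to 0.12, limma adjusted p = 0.671). Without RORγt+ replicate 3 it was -0.37 ± 0.075 (SE, limma adjusted p = 0.0866), the smallest adjusted p of any member in any alternative run, and still not a call. Without RORγt+ replicate 1 it was -0.14, over 1.5 times smaller.

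Lef1 (chromosome 3, 131110471 to 131224356) was at 3061, 2501 and 2839 normalized counts in RORγt+ Tregs and at 3002, 3072 and 3106 in CCR6+RORγt- Tregs. The groups overlapped, through RORγt+ replicate 1. Its log2 fold change of -0.13 ± 0.12 (SE, 95% interval -0.41 to 0.15) did not pass (limma adjusted p = 0.774). It was -0.15 ± 0.11 without RORγt+ replicate 3 (limma adjusted p = 0.517), -0.054 without RORγt+ replicate 2 and -0.20 without RORγt+ replicate 1. Of the 31-base sequence windows of Lef1 transcripts, 14.7% also occur in transcripts of other genes, mostly the antisense gene Gm43352 (13.4%), and nothing in the sources states whether counting used the strand. For each of the other 8 genes the share is 6.37% or less.

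Bach2, a leucine-zipper repressor that holds back effector differentiation, and Satb1, an organiser of chromatin loops that acts early in Treg development, were measured next. Bach2 (chromosome 4, 32238804 to 32586108) was at 1102, 1039 and 1366 normalized counts in RORγt+ Tregs and at 979, 1294 and 1177 in CCR6+RORγt- Tregs. The groups were interleaved. Its log2 fold change was 0.023 ± 0.16 (SE, 95% interval -0.36 to 0.41, limma adjusted p = 0.98), and its sign turned under upper-quartile scaling (-0.025). It also turned without RORγt+ replicate 3 (-0.094 ± 0.14, limma adjusted p = 0.755) and without CCR6+RORγt- replicate 1 (-0.088).

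Satb1 (chromosome 17, 51736187 to 51833290) was at 4978, 4434 and 3658 normalized counts in RORγt+ Tregs and at 3486, 3477 and 4129 in CCR6+RORγt- Tregs. RORγt+ replicates 1 and 2 exceeded every CCR6+RORγt- library and replicate 3 did not. In log2 fold change Satb1 stood at 0.23 ± 0.15 (SE, 95% interval -0.12 to 0.58, limma adjusted p = 0.669), and at 0.35 ± 0.11, over 1.5 times larger, without RORγt+ replicate 3 (limma adjusted p = 0.198). Without RORγt+ replicate 1 it was 0.13, over 1.5 times smaller.

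Klf2 and Klf3 encode zinc-finger factors of the Krüppel-like family. KLF2 activates the egress receptor gene S1pr1 in resting T cells, and KLF3 is a repressor that recruits CtBP. Klf2 (chromosome 8, 72319033 to 72321656) was at 3692, 3295 and 5331 normalized counts in RORγt+ Tregs and at 2708, 2737 and 2693 in CCR6+RORγt- Tregs. Every RORγt+ library was above every CCR6+RORγt- library, and RORγt+ replicate 3 was the highest of all. The mean was 4106 ± 1080 in RORγt+ Tregs and 2713 ± 22.4 in CCR6+RORγt- Tregs (SD, n = 3 each), a ratio of 1.51. The log2 fold change was 0.57 ± 0.18 (SE, 95% interval 0.14 to 0.995, limma adjusted p = 0.32), and without RORγt+ replicate 3 it was 0.36 ± 0.086 (limma adjusted p = 0.118), over 1.5 times smaller.

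Klf3 (chromosome 5, 64803388 to 64832901) was at 3838, 4185 and 2581 normalized counts in RORγt+ Tregs and at 3462, 3622 and 3298 in CCR6+RORγt- Tregs. RORγt+ replicates 1 and 2 were above all CCR6+RORγt- libraries, and RORγt+ replicate 3 was below them all. Klf3 had a log2 fold change of 0.0011 ± 0.19 (SE, 95% interval -0.44 to 0.44, limma adjusted p = 0.999). Without RORγt+ replicate 3 it was 0.21 ± 0.087 (limma adjusted p = 0.28), and under upper-quartile scaling it was -0.048. It was below 0 without RORγt+ replicate 1 (-0.073), RORγt+ replicate 2 (-0.14) or CCR6+RORγt- replicate 3 (-0.033).

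Id2 and Id3 encode helix-loop-helix proteins that lack a DNA-binding region and so inactivate the E proteins they pair with; in T cells, ID2 is linked to effector states and ID3 to naive and follicular states. Id2 (chromosome 12, 25093799 to 25097140) was at 435, 376 and 466 normalized counts in RORγt+ Tregs and at 279, 306 and 279 in CCR6+RORγt- Tregs. All 3 RORγt+ libraries were above all 3 CCR6+RORγt- libraries. Id2 averaged 426 ± 45.5 in RORγt+ Tregs and 288 ± 15.8 in CCR6+RORγt- Tregs (SD, n = 3 each), a ratio of 1.48. Its log2 fold change of 0.56 ± 0.15 (SE, 95% interval 0.20 to 0.92) gave the smallest adjusted p of the 9 genes and did not pass (limma adjusted p = 0.238). Without RORγt+ replicate 3 the log2 fold change was 0.49 ± 0.13 (SE, limma adjusted p = 0.15).

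Id3 (chromosome 4, 136143497 to 136145755) was at 809, 541 and 885 normalized counts in RORγt+ Tregs and at 997, 721 and 687 in CCR6+RORγt- Tregs. The groups overlapped, and each held 1 library well away from its other 2. For Id3 the log2 fold change was -0.12 ± 0.23 (SE, 95% interval -0.66 to 0.43, limma adjusted p = 0.926), the widest interval of the 9 genes. Its sign turned without RORγt+ replicate 2 (0.099) and without CCR6+RORγt- replicate 1 (0.051), and without RORγt+ replicate 3 it was -0.26 ± 0.23 (limma adjusted p = 0.594).

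Cd44 (chromosome 2, 102811141 to 102901665), whose protein marks activated and memory T cells, was at 1506, 1659 and 1279 normalized counts in RORγt+ Tregs and at 1755, 1790 and 1820 in CCR6+RORγt- Tregs. No RORγt+ library reached the lowest CCR6+RORγt- library. Cd44 averaged 1481 ± 191 in RORγt+ Tregs and 1789 ± 32.7 in CCR6+RORγt- Tregs (SD, n = 3 each). The log2 fold change was -0.28 ± 0.13 (SE, 95% interval -0.59 to 0.030, limma adjusted p = 0.518), and it was -0.18 ± 0.089 without RORγt+ replicate 3 (limma adjusted p = 0.355), over 1.5 times smaller. Splice forms of Cd44 and Tcf7 are summed in these values and were not compared.

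**Figure D2:**
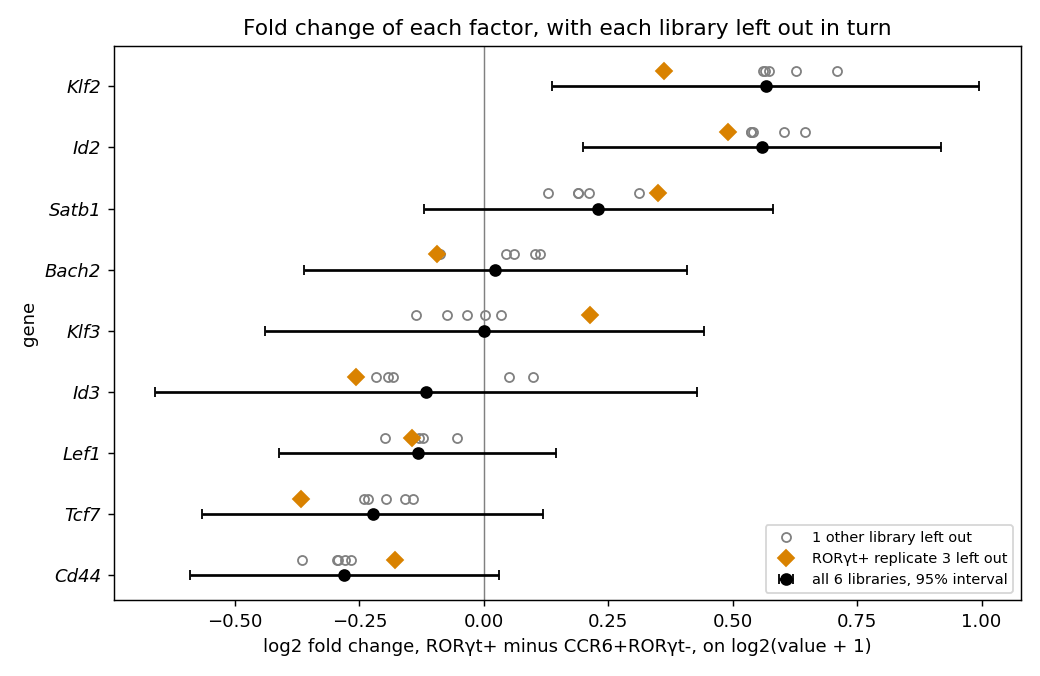
Log2 fold change of each gene, RORγt+ minus CCR6+RORγt- on log2(value + 1) (x axis), from all 6 libraries (black, with the 95% interval from limma) and with 1 library left out (open circles; orange diamond, RORγt+ replicate 3). Only the intervals of Id2 and Klf2 lie above 0, without adjustment over genes, and the diamonds show Tcf7 at -0.37 and Klf3 at 0.21.

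RORγt+ libraries varied more among themselves than CCR6+RORγt- libraries for all 9 genes. The coefficient of variation over 3 libraries was 10.1% (Lef1) to 26.3% (Klf2) in RORγt+ Tregs and 0.824% (Klf2) to 21.2% (Id3) in CCR6+RORγt- Tregs. It was larger in the RORγt+ group for 75.7% of the 9056 genes with a mean of at least 100, so the direction is common in the table. RORγt+ replicate 3 departed from the mean of RORγt+ replicates 1 and 2 by a median of 0.36 in size on the log2 scale over the 9 genes, and by 0.40 over those 9056 genes. Its departure was upward for Klf2 (0.61), Tcf7 (0.43), Id3 (0.42), Bach2 (0.35) and, less, Id2 (0.20), and downward for Klf3 (-0.63), Satb1 (-0.36) and Cd44 (-0.31), and it was 0.037 for Lef1. Without RORγt+ replicate 3 the groups did not overlap in 6 of the 9 genes, Id2, Klf2, Klf3 and Satb1 higher and Tcf7 and Cd44 lower in RORγt+ Tregs, where 36.9% of all genes did not overlap. Limma called 0 of the 9 in that fit, beside 1.09% of all genes.

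Levels of different genes can be compared only per length. Per kilobase of the longest coding transcript, Tcf7 was the most abundant of the 9 at 3251 normalized counts per kilobase in RORγt+ Tregs and 3757 in CCR6+RORγt- Tregs. Klf2 followed at 2223 in RORγt+ and 1469 in CCR6+RORγt- Tregs. Tcf7 was above Klf2 on this scale in every library. Lef1 stood at 804 per kilobase in RORγt+ and 879 in CCR6+RORγt- Tregs. Satb1 had 698 in RORγt+ and 592 in CCR6+RORγt- Tregs, Klf3 had 677 in RORγt+ and 663 in CCR6+RORγt- Tregs, and Id3 had 583 in RORγt+ and 627 in CCR6+RORγt- Tregs. Satb1, Klf3 and Id3 overlapped one another between libraries in both groups, and Lef1 lay above Id3 without overlap in both groups and above Satb1 and Klf3 without overlap in CCR6+RORγt- Tregs but not in RORγt+ Tregs. Cd44 had 264 in RORγt+ and 319 in CCR6+RORγt- Tregs, Id2 had 216 in RORγt+ and 146 in CCR6+RORγt- Tregs, and Bach2 had 132 in RORγt+ and 129 in CCR6+RORγt- Tregs. Id2 overlapped Cd44 but not Bach2 in RORγt+ Tregs, and Bach2 but not Cd44 in CCR6+RORγt- Tregs. The longest transcript may not be the one these cells use, so the order is approximate.

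Ratios between members within a library do not depend on how libraries were scaled. The log2 ratio of Id2 to Id3 was -0.89, -0.52 and -0.92 in RORγt+ replicates 1 to 3 and -1.83, -1.23 and -1.30 in CCR6+RORγt- replicates 1 to 3. Id2 was thus below Id3 in normalized counts in every library, and the gap was smaller in each RORγt+ library than in any CCR6+RORγt- library. The groups differed by 0.68 in mean log2 ratio (p = 0.1 in an exact two-sided permutation test, the lowest p that 6 libraries in these groups can give). The log2 ratio of Tcf7 to Id2 was 4.03, 4.27 and 4.38 in RORγt+ Tregs and 5.11, 4.88 and 5.03 in CCR6+RORγt- Tregs. RORγt+ replicate 3, which had the highest Tcf7, also had the highest Id2, and its ratio stayed below every CCR6+RORγt- library. The difference was -0.78 (p = 0.1 in the same exact permutation test). Both differences draw on the higher Id2 values given above and are no separate evidence.

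**Figure D3:**
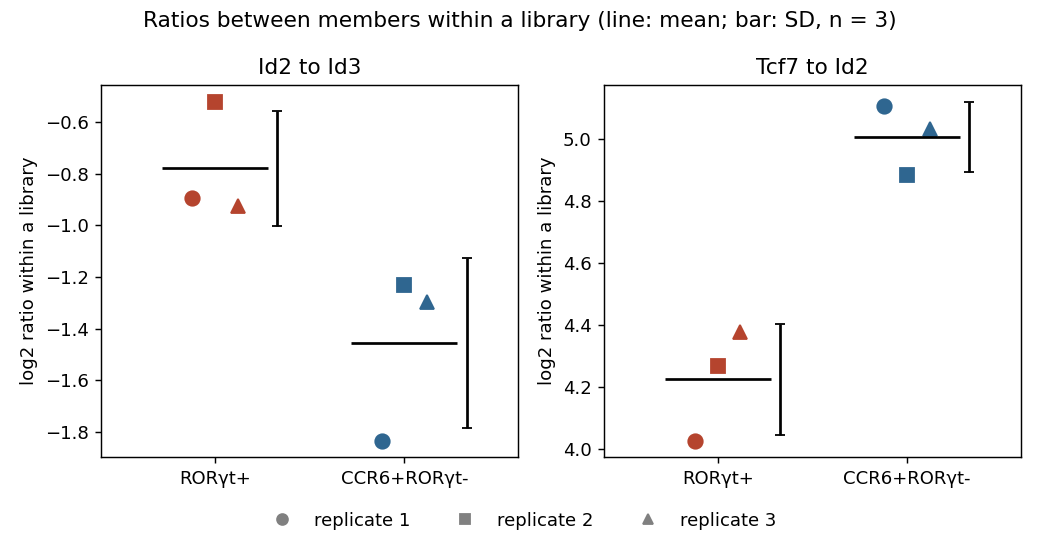
Log2 ratio within each library (y axes, not starting at 0) of Id2 to Id3 and of Tcf7 to Id2, for the 3 RORγt+ and the 3 CCR6+RORγt- Treg libraries, with symbols for replicate numbers, lines for means and bars for the SD (n = 3). The groups do not overlap in either panel, and the mean differences are 0.68 and -0.78.

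Genes tied to these factors were read from lists. Of 6 trafficking genes linked to KLF2, 0 passed the adjusted threshold, and 3 did not overlap, all higher in RORγt+ Tregs, where 8.31% of all genes were. The median log2 fold change of these 6 was 0.35, beside -0.011 over all genes. The integrin gene Itgb7, whose protein takes part in homing to the gut, was at 9410, 9566 and 13433 normalized counts in RORγt+ Tregs and at 7301, 6406 and 7102 in CCR6+RORγt- Tregs. Like Klf2, it was highest in RORγt+ replicate 3. Its log2 fold change was 0.62 ± 0.16 (SE, limma adjusted p = 0.221). S1pr1, which encodes the receptor that lets T cells leave lymphoid organs, was at 5505, 4627 and 4232 normalized counts in RORγt+ Tregs and at 3383, 3603 and 3384 in CCR6+RORγt- Tregs (limma adjusted p = 0.249). Unlike Klf2, it was lowest of its group in RORγt+ replicate 3. S1pr4, the third gene without overlap and named after its values were seen, had a log2 fold change of 0.61 (limma adjusted p = 0.338).

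Of 14 other genes of naive and central T cells, 0 passed, 2 were higher and 3 lower without overlap in RORγt+ Tregs, where 8.31% and 9.81% of all genes were, and the median log2 fold change was -0.042. Foxo1, the transcription factor upstream of Klf2, was at 4693, 4472 and 5970 normalized counts in RORγt+ Tregs and at 4494, 4519 and 4392 in CCR6+RORγt- Tregs (limma adjusted p = 0.755). Actn1, which encodes α-actinin, had a log2 fold change of 0.069 (limma adjusted p = 0.918). The 5 genes without overlap, named after their values were seen, were S1pr1 and the kinase gene Txk, at 0.46 and 0.58, and Igfbp4, Dapl1 and Foxp1, at -0.52, -1.28 and -0.28, on the log2 fold change scale. Dapl1, a gene of naive T cells, was at 76.0, 51.7 and 41.2 normalized counts in RORγt+ Tregs and at 121, 141 and 139 in CCR6+RORγt- Tregs (limma adjusted p = 0.133). Members of 1 list thus lay on both sides of 0.

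Of 24 effector Treg genes, 1 rose and 1 fell past the threshold, 22 did not pass, and the median log2 fold change was -0.096, where 0.564% of all genes passed. The groups did not overlap in 11 of the 24, 5 higher and 6 lower in RORγt+ Tregs, beside 8.31% higher and 9.81% lower of all genes. Itgae, the integrin that binds E-cadherin, had a log2 fold change of 1.49 (limma adjusted p = 0.012), and Pdcd1, the gene of the inhibitory receptor PD-1, had -1.38 (limma adjusted p = 0.0219). Without RORγt+ replicate 3, 6 of the 24 passed, where 1.09% of all genes did. Itgae and Pdcd1 both passed in that fit, with 1.56 and -1.48 in log2 fold change. With any other single library left out neither passed, with limma adjusted p of 0.0606 to 0.0847 for Itgae and 0.0867 to 0.151 for Pdcd1. Prdm1, which encodes BLIMP1 and is a target that BACH2 represses, was at 355, 419 and 271 normalized counts in RORγt+ Tregs and at 343, 400 and 351 in CCR6+RORγt- Tregs (limma adjusted p = 0.939), and was named after its values were seen. Both Bach2 and Prdm1 overlapped between the groups.

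The remaining partner lists held no call. Of 17 measured TCF/LEF and Wnt pathway genes, 0 passed, and 4 were higher and 1 lower without overlap in RORγt+ Tregs, where 8.31% and 9.81% of all genes were. Ctnnb1, which encodes β-catenin, had a log2 fold change of 0.38 (limma adjusted p = 0.422), and the corepressor genes Aes and Tle3 had 0.17 and -0.37. Axin2, a standard target of β-catenin with TCF/LEF and named after its values were seen, was at 871, 819 and 918 normalized counts in RORγt+ Tregs and at 568, 599 and 686 in CCR6+RORγt- Tregs, without overlap (log2 fold change 0.50 ± 0.14, SE, limma adjusted p = 0.233). It lay on the other side of 0 from Tcf7 and Lef1. The other genes without overlap, also named after their values were seen, were Lrp5, Tcf7l2 and Tle2, of which Tcf7l2 and Tle2 were scarce, with maxima of 7.20 and 57.1 normalized counts.

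Of 4 measured E protein and other ID genes, 0 passed and 0 were without overlap. Tcf3 and Tcf12, which encode the E proteins E2A and HEB that ID2 and ID3 bind, had log2 fold changes of 0.24 and -0.23 (limma adjusted p = 0.675 and 0.761). Tcf4 and Id1 were scarce, with maxima of 86.1 and 7.63 normalized counts. Among 7 genes of BACH and small MAF factors with their targets, 0 passed and 0 were without overlap, and Bach1, Nfe2l2 and Mafk had log2 fold changes of -0.11, 0.080 and 0.042. Of 11 other measured KLF family genes and KLF3 cofactors, 0 passed. Without overlap, 1 was higher and 1 lower in RORγt+ Tregs, where 8.31% and 9.81% of all genes were. These were Klf11 and Klf9, both named after their values were seen. Their log2 fold changes were 0.75 and -0.78 (limma adjusted p = 0.351 and 0.174). The more abundant Klf13, Klf6 and Ctbp1 had log2 fold changes of -0.072, -0.057 and 0.012.

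Of 4 measured SATB1 partners, 0 passed and 0 were without overlap, and Hdac1, Smarca5 and Baz1a had log2 fold changes of 0.098, -0.24 and -0.17. Of 9 measured CD44 partners and hyaluronan genes, 0 passed. Without overlap, 3 were higher and 1 lower in RORγt+ Tregs, where 8.31% and 9.81% of all genes were. Msn and Ezr, which encode the linkers moesin and ezrin that tie CD44 to actin, were higher without overlap. Their log2 fold changes were small, 0.054 and 0.13 (limma adjusted p = 0.922 and 0.758), and Rdx, for radixin, had -0.056. Hmmr, a hyaluronan receptor gene of dividing cells, was higher without overlap, with a log2 fold change of 1.43 (limma adjusted p = 0.271). Spp1, for the CD44 ligand osteopontin, was lower without overlap. Its listed value was 0 in each RORγt+ library and 1.39 to 11.7 normalized counts in CCR6+RORγt- libraries. Hmmr and Spp1 were named after their values were seen. Of 12 PI3K, AKT and FOXO genes, 0 passed. Pik3cd and Sgk1 (2 genes) were higher and Mtor (1 gene) lower without overlap in RORγt+ Tregs, where 8.31% and 9.81% of all genes were. Pik3cd and Pik3r1, for subunits of the kinase, had log2 fold changes of 0.13 and -0.23. Sgk1, a kinase gene, had 1.34 ± 0.24 (SE, limma adjusted p = 0.0775), and Mtor had -0.38 ± 0.16 (SE, limma adjusted p = 0.458). Sgk1 and Mtor were named after their values were seen. Without RORγt+ replicate 3, Aes, Smarca5, Rdx and Pik3r1 lay on the other side of 0, at log2 fold changes of -0.13, 0.11, 0.33 and 0.096. So did Baz1a, Klf6, Ctbp1 and Mafk, at 0.069, 0.031, -0.082 and -0.017.

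**Figure D4:**
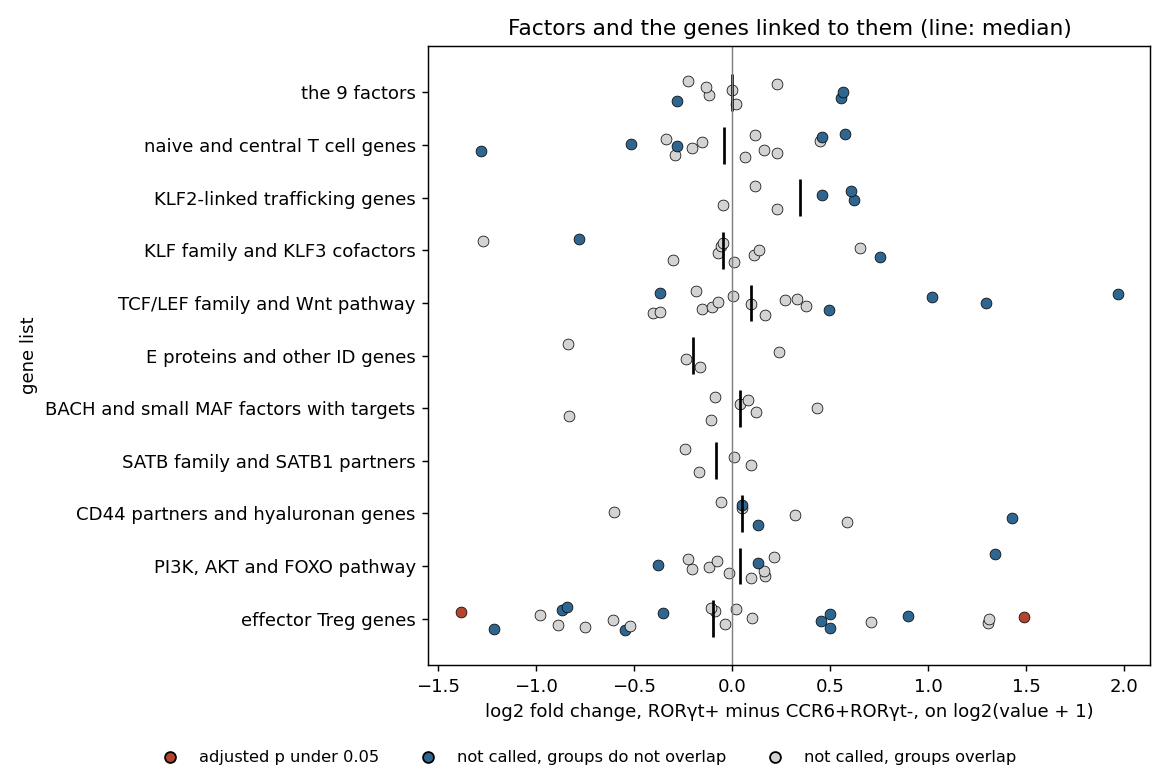
Log2 fold change, RORγt+ minus CCR6+RORγt- on log2(value + 1) (x axis), of the 9 factors and of 10 lists of linked genes (rows); points are genes, black lines list medians, red points passed an adjusted p under 0.05 and blue points did not pass but have groups that do not overlap. The 2 red points, Pdcd1 and Itgae, are both effector Treg genes; Spp1, listed at 0 in 1 group, is not drawn but is counted in its list's median.

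Several of the 9 factors are also expressed outside Tregs, Bach2, Klf2 and Id3 in B cells and Id2 in innate lymphocytes and myeloid cells, so markers of those cells are given. The 10 B cell markers summed to 7599 to 11137 normalized counts in RORγt+ libraries and to 8580 to 10981 in CCR6+RORγt- libraries, most of it Ighm, and 0 of the 10 passed. The 8 markers of NK cells and ILCs summed to 263 to 270 in RORγt+ and 259 to 290 in CCR6+RORγt- libraries, with 0 passing and a median log2 fold change of 0.56. Of these 8, Klrk1 was higher without overlap, at 14.3, 21.7 and 14.3 normalized counts in RORγt+ and 0.52, 8.50 and 0.41 in CCR6+RORγt- libraries, and Prf1 was lower without overlap, with a log2 fold change of -0.43 (limma adjusted p = 0.288 and 0.471). Klrk1 was named after its values were seen. Over all genes, 8.31% were higher and 9.81% lower without overlap. The 7 measured monocyte and macrophage markers summed to 274 to 438 normalized counts in RORγt+ and 838 to 987 in CCR6+RORγt- libraries, a sum made mainly of Cybb, which fell (log2 fold change -1.99, limma adjusted p = 0.00859). With 1 library left out Cybb passed without RORγt+ replicate 2 or 3 and did not pass without any of the other 4, with limma adjusted p up to 0.0794. The other 6 did not pass, but the median log2 fold change of the 7 was 1.29, and 3, named after their values were seen, were higher without overlap in RORγt+ Tregs, where 8.31% of all genes were. Itgam was at 55.7, 48.5 and 22.2 normalized counts in RORγt+ and 14.3, 14.4 and 17.9 in CCR6+RORγt- libraries. Fcer1g averaged 13.8 ± 3.75 in RORγt+ and 2.15 ± 2.89 in CCR6+RORγt- libraries (SD, n = 3 each). Csf1r, the third, was under 10 normalized counts in every library. Lyz2 overlapped, at 9.97 to 81.6 in RORγt+ and 4.09 to 23.6 in CCR6+RORγt- libraries. The 5 CD8 and γδ T cell markers summed to 273 to 318 in RORγt+ and 225 to 318 in CCR6+RORγt- libraries, with 0 passing. Of these 5, Trdc was higher without overlap, where 8.31% of all genes were. It was at 99.8, 89.2 and 109 normalized counts in RORγt+ and 51.5, 61.8 and 71.5 in CCR6+RORγt- libraries (limma adjusted p = 0.354). The highest CCR6+RORγt- sum was that of replicate 2, where Cd8a was at 68.7, against 2.82 and 3.95 in replicates 1 and 3. The part of these cells in the Id2, Klf2 and Cd44 values was not tested.

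Genes that respond to handling and to antigen receptor signals were read in the same way. Of 11 sort stress and immediate early genes, 0 passed, 5 were lower without overlap in RORγt+ Tregs, where 9.81% of all genes were, and the median log2 fold change was -0.64. In the fit without RORγt+ replicate 3, 3 of the 11 passed, among them Egr1 at -0.72 (limma adjusted p = 0.0359), where 1.09% of all genes passed. Their sum was 3318 to 5205 normalized counts in RORγt+ libraries and 5170 to 6203 in CCR6+RORγt- libraries. Egr1, Junb and Nr4a1 had log2 fold changes of -0.64, -0.33 and -0.28 (limma adjusted p = 0.116, 0.523 and 0.706). Their part in the member values was not tested.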

How the data were processed

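The authors deposited 1 normalized count signal per gene and library for 6 libraries, not raw counts. The submitters' processing notes name Salmon 1.2.0, DESeq2 and GRCm38 and do not say what each did; filters and annotation are not stated there. The value of 1 read was estimated as the step that put most values up to 20 reads near whole numbers; 51.4% to 69.5% lay within 0.1 read, so reads were not recovered. Values were fitted as log2(value + 1) over all 15944 genes with limma 3.58.1 in R 4.3.3 (group as the only term, two-sided moderated test with a mean-variance trend, Benjamini-Hochberg over all genes, threshold 0.05), with no filter; all 9 members have a mean above 10. The fit was tested on simulated data with the same spread in both groups, no outlying library and larger changes than those of the members. That test did not cover changes of the size seen here. Symbols missing from the deposited table (1842) came from GENCODE M21 (GRCm38), which held 15851 of the gene identifiers. Members and lists were chosen with earlier results of these data known. Named genes were all members, every called gene of a list or otherwise its 3 most abundant; others are marked, and some results that this covers are not reported here. Alternatives were pseudocounts, scalings, a filter, variance models, weights, a replicate block and each library left out.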

Additional observations from a re-analysis of the deposited data

How the results depend on the processing

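No member was called under any of the 14 alternatives. Id2, Klf2, Satb1, Tcf7, Lef1 and Cd44 and both ratios kept their direction in each alternative run for them; Id2 ranged from 0.49 to 0.64 and Klf2 from 0.36 to 0.71 in log2 fold change. Bach2 turned to -0.098 with array weights and -0.025 with upper-quartile scaling, and ranged from -0.094 to 0.11 with a library left out. Klf3 turned to -0.048 with upper-quartile scaling and ranged from -0.14 to 0.21 with a library left out, and Id3 from -0.26 to 0.099. Array weights gave 358 called genes and leaving out a library 4 to 174 (174 without RORγt+ replicate 3, and 10 or fewer without any other), against 90; the cause was not tested. With the replicate block 1 gene was called. The deviations of libraries with the same number correlated at -0.11, -0.022 and -0.18 across genes, so no shared deviation was seen. With so few libraries these values cannot decide whether the numbers pair libraries, which the sources used here do not state. Depth limits Id2 most.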
